A study of Rattus norvegicus with 18 samples.

Results

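Genes of the lung's connective tissue were followed through repeated exposure of rats to cigarette smoke: the fibrillar collagen chain genes Col1a1, Col3a1 and Col5a2, the matricellular gene Ccn2, and the fibronectin gene Fn1. They were taken by gene symbol and are 5 of the 4616 named genes on the array. Col1a1, Col3a1, Col5a2 and Ccn2 were each read by 1 distinct probe, and Fn1 by 4 distinct probes, here called A to D.

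The rats breathed diluted smoke through the nose at 300 µg (low dose) or 600 µg (high dose) of total particulate matter per litre, or conditioned fresh air, in 2 sessions of 1 h a day with a 30 min break, on 5 days a week. Exposure lasted 2, 7 or 13 weeks, and the last session ended 2, 6 or 20 hours before the lungs were taken. RNA of whole lung from the 4 rats of a condition was pooled, the smoke pool was labelled with Cy5 and the air pool with Cy3, and the 2 were hybridised together on 2-colour arrays. No source used here gives the rats' strain, sex or age.

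The values are 18 log2 ratios of smoke over air, 1 for each dose in each of the 9 combinations of weeks and hours, and both doses of a combination share 1 air pool. Each condition is thus 1 pooled sample, and the replicates of a dose are its 9 combinations, so that p-values measure the spread between these combinations. Smoke was always in Cy5: a constant difference between the dyes would add to a value against air and cannot be told apart from the exposure, while it cancels in the high dose minus the low dose. The ratios hold no expression level, so only detection could be looked at. All 6 alveolar epithelial markers on the array, surfactant genes among them, had a value in all 18 samples. So had at least 3555 of the 4616 named genes. The striated muscle markers Acta1 and Myl2 had a value in all 9 high-dose samples. Detection thus cannot tell lung from another tissue, and the lung label was not tested. In whole lung, fewer cells of a type and less RNA per cell cannot be told apart.

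Fibrillar collagens are made as procollagen chains, mostly by fibroblasts and related cells, wound into triple helices in the endoplasmic reticulum, trimmed outside the cell and crosslinked into fibrils. Col1a1 encodes the main chain of type I collagen, the bulk of tensile collagen; Col3a1 encodes the only chain of type III collagen, abundant in stretchable tissue such as lung; and Col5a2 encodes a chain of type V collagen, which sits in the core of type I fibrils and regulates their width. Fibronectin, from Fn1, is a large adhesive glycoprotein that cells assemble into fibrils through integrins, and its pre-mRNA is spliced into several forms. Ccn2, also called connective tissue growth factor, encodes a secreted modulator of growth factors and integrins and is a known quick target of TGF-beta and of the mechanosensitive YAP and TAZ coactivators.

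Promoters of Ccn2 and Col5a2 were at hand from RefSeq (build GRCr8), for 2 of the 5 members. They are shown as the only promoters of members at hand, and whether their motifs bear on the changes with smoke was not tested. Each run is the 250 bases before the start of the gene, 5′ to 3′ on the gene's own strand, which is the minus strand for both. Capitals mark every match, on either strand, to 5 motifs: TATAAA (the TATA box), CCAAT (the NF-Y element), TGANTCA (the AP-1 element), CAGAC (the SMAD element) and GGAATG (the TEAD element).

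Ccn2, chr1:22624615-22624864: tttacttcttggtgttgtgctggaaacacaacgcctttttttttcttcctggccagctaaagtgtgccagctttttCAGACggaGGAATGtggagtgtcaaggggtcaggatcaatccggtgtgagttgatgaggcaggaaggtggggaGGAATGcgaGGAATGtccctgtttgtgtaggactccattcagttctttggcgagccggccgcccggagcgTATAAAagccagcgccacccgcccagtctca

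Col5a2, chr9:55090152-55090401: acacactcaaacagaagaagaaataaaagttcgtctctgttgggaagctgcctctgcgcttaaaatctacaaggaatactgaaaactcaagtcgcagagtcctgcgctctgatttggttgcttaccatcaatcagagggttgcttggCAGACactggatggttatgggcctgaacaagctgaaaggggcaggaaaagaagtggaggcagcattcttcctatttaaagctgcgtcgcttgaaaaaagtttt

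The Ccn2 promoter holds TATAAA at 31 to 26 bases before the start, CAGAC at 174 to 170, and GGAATG at 3 places, 166 to 161, 101 to 96 and 92 to 87 bases before it. The Col5a2 promoter holds 1 match, a CAGAC at 103 to 99 bases before the start. None of these matches overlap. Among the 33469 promoters of this length in the table, 12.9% hold TATAAA, 34% CCAAT, 6.34% TGANTCA, 42.9% CAGAC and 12.1% GGAATG. A match to so few letters is a description of the sequence, and binding was not measured.

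Against air, the collagens and Ccn2 went opposite ways. At the high dose Col1a1, Col3a1 and Col5a2 fell to between 0.67 and 0.71 of air and Ccn2 rose to 1.43 times air, while Fn1 did not pass the test. In all, 4 of the 5 members passed an adjusted p of 0.05 at the high dose (limma, Benjamini-Hochberg over 4016 genes), where 17.2% of all genes tested did, 9.56% higher and 7.64% lower. At the low dose 2 of the 5 passed, Col3a1 and Col5a2, both lower, against 4.96% of all genes, 3.51% higher and 1.44% lower. The median of all genes was 0.00 at both doses. The members, and the gene lists below, were chosen with earlier results of these data known. Their shares beside those of all genes are thus a description and not a test.

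**Figure D1:**
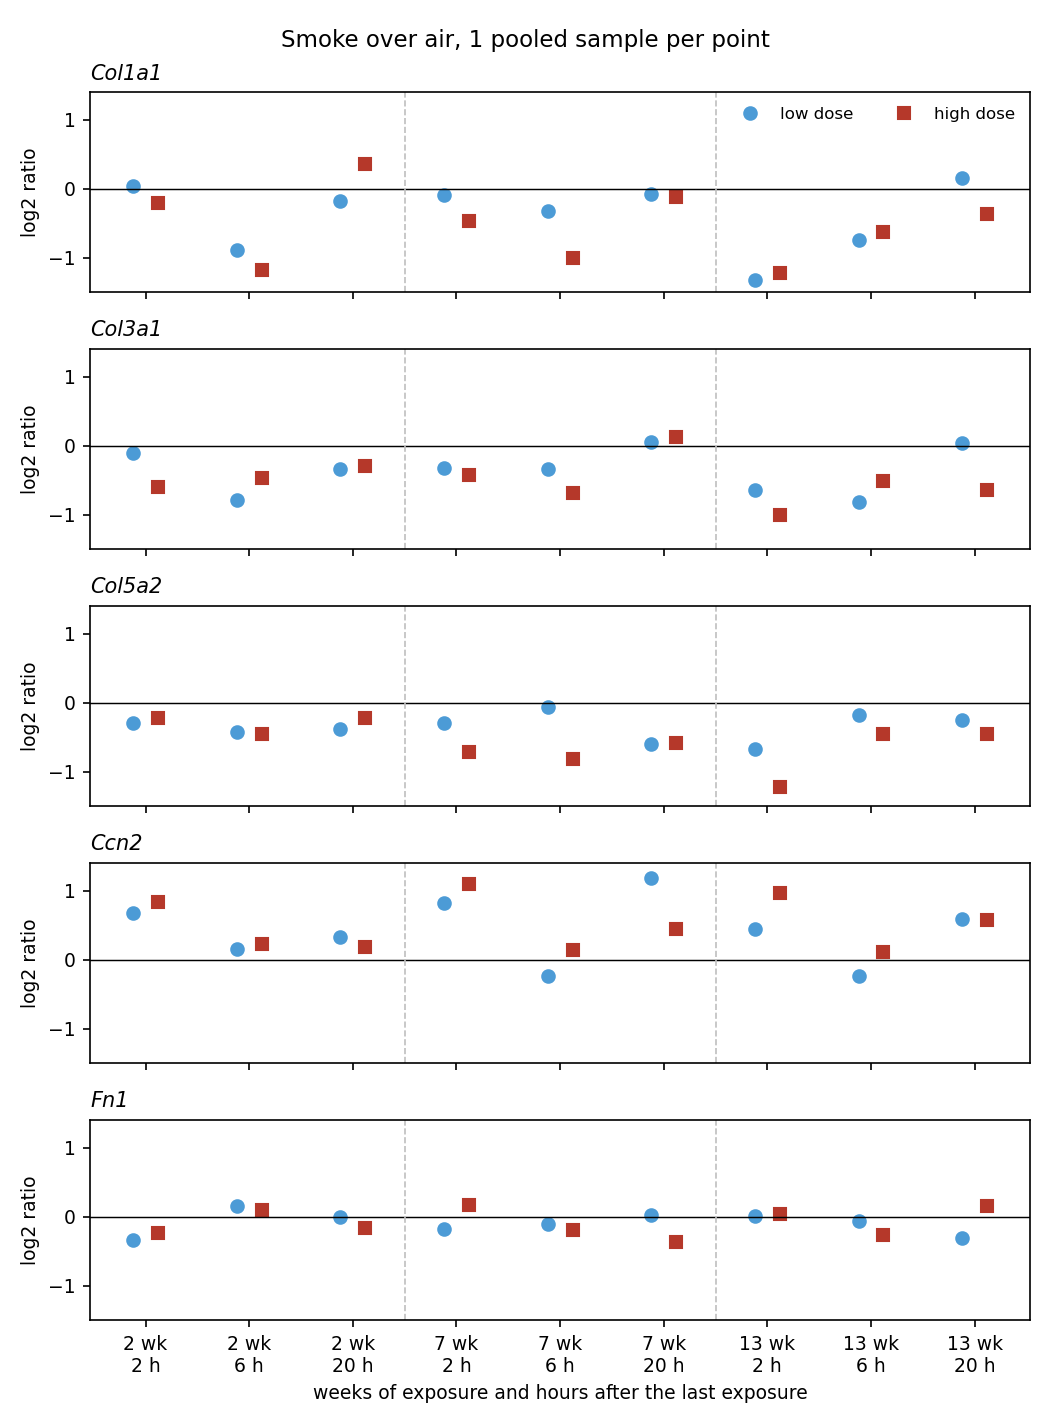
Log2 ratio of smoke over air (vertical axis) for each gene in the 9 combinations of weeks and hours (horizontal axis); each point is 1 pooled sample, blue circles the low dose and red squares the high dose, and Fn1 is the mean of its probes. Col5a2 lies below 0 in all 18 samples, Ccn2 is high at 2 hours and near 0 at 6 hours, and Fn1 stays between -0.37 and 0.17.

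Col5a2 lay below air throughout. Its 9 high-dose values ran from -1.22 (13 weeks, 2 hours) through a median of -0.45 to -0.22, and its low-dose values from -0.67 (13 weeks, 2 hours) through -0.30 to -0.06 (7 weeks, 6 hours). Of all genes tested, 3.41% were below air in every high-dose sample and 1.39% in every low-dose sample. The mean log2 ratio was -0.57 ± 0.088 (SE, n = 9 samples, 0.67 of air, limma adjusted p = 0.0006276) at the high dose, the 10th lowest of the 4016 genes, and -0.35 ± 0.065 (n = 9, 0.78 of air, limma adjusted p = 0.005461) at the low dose. The high-dose call held in all alternatives run. The low-dose call was lost without the 13-week, the 20-hour, the 2-hour or the 2-week samples (adjusted p up to 0.07307). It was also lost by an exact sign-flip permutation test (adjusted p = 0.1137), which passed 0 genes at the low dose. With 9 of 9 values below air, Col5a2 already had the smallest p of that test, 0.00391, so the test could not keep this call. The adjusted p of the low-dose call ran from 0.003372 to 0.1137 over the 24 alternatives.

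Col3a1 fell in most samples. Its high-dose values ran from -1.0 (13 weeks, 2 hours) through a median of -0.51 to 0.12 (7 weeks, 20 hours), and its low-dose values from -0.81 (13 weeks, 6 hours) through -0.34 to 0.06 (7 weeks, 20 hours). The 2 doses overlap over most of this range. The mean was -0.50 ± 0.086 (SE, n = 9, 0.71 of air, below air in 8 of 9, limma adjusted p = 0.001408) at the high dose and -0.36 ± 0.092 (n = 9, 0.78 of air, below air in 7 of 9, limma adjusted p = 0.03617) at the low dose. The high-dose call was lost only by the exact sign-flip permutation test (adjusted p = 0.06188). At the high dose that test passed only genes with all 9 values on 1 side of air. With 8 of 9 below air, Col3a1 could not pass it. The low-dose call was lost in 6 of 9 fits that left out 1 combination, those without 13 weeks 2 hours, 13 weeks 6 hours, 2 weeks 20 hours, 2 weeks 6 hours, 7 weeks 2 hours or 7 weeks 6 hours (adjusted p up to 0.1027; 0.0161 to 0.2568 over all 24 alternatives).

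Col1a1 had the widest spread of the collagens. Its high-dose values ran from -1.22 (13 weeks, 2 hours) through a median of -0.47 to 0.36 (2 weeks, 20 hours), and its low-dose values from -1.32 (13 weeks, 2 hours) through -0.18 to 0.15 (13 weeks, 20 hours). Its deepest values, at or under -0.89 at either dose, all came from 2 or 6 hours, and all 6 values at 20 hours lay between -0.36 and 0.36. The mean was -0.53 ± 0.14 (SE, n = 9, 0.69 of air, below air in 8 of 9, limma adjusted p = 0.01675) at the high dose. The low-dose mean was -0.38 ± 0.13 (n = 9, below air in 7 of 9), which missed the threshold (limma adjusted p = 0.1141). The high-dose call held without any 1 combination (adjusted p up to 0.04308). It was lost without the 6-hour samples (mean -0.34, adjusted p = 0.171), the 13-week, the 2-hour or the 7-week samples. It was also lost by the exact sign-flip permutation test (adjusted p = 0.1134), which Col1a1 could not pass with 8 of 9 values below air. The adjusted p ran from 0.003135 to 0.171 over the 24 alternatives.

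Ccn2 rose. Its high-dose values ran from 0.11 (13 weeks, 6 hours) through a median of 0.45 to 1.10 (7 weeks, 2 hours), all above air, a pattern that 4.98% of all genes tested shared. Its low-dose values ran from -0.23, reached at 6 hours after both 7 and 13 weeks, through 0.44 to 1.18 (7 weeks, 20 hours). The mean was 0.51 ± 0.10 (SE, n = 9, 1.43 times air, limma adjusted p = 0.004094) at the high dose, the 73rd highest of 4016 genes. The low-dose mean was 0.42 ± 0.12 (n = 9, above air in 7 of 9) and missed the threshold (limma adjusted p = 0.07141), but passed it in the fit of all 18 samples with the shared air pool as a block (0.0335), without the 6-hour samples (mean 0.67, adjusted p = 0.008631), and without the 6-hour sample of 7 weeks (0.03233) or of 13 weeks (0.0322); the adjusted p ran from 0.008631 to 0.4272 over the 24 alternatives.

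Fn1 showed no call at either dose. The mean of its probes ran from -0.37 (7 weeks, 20 hours) through a median of -0.17 to 0.17 (7 weeks, 2 hours) at the high dose and from -0.34 (2 weeks, 2 hours) through -0.06 to 0.15 (2 weeks, 6 hours) at the low dose. The means were -0.09 ± 0.064 (SE, n = 9, 95% interval -0.23 to 0.05, limma adjusted p = 0.3757) and -0.09 ± 0.059 (n = 9, 95% interval -0.22 to 0.04, limma adjusted p = 0.4508). These intervals exclude a mean change of the size seen for the collagens at the same dose.

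**Figure D2:**
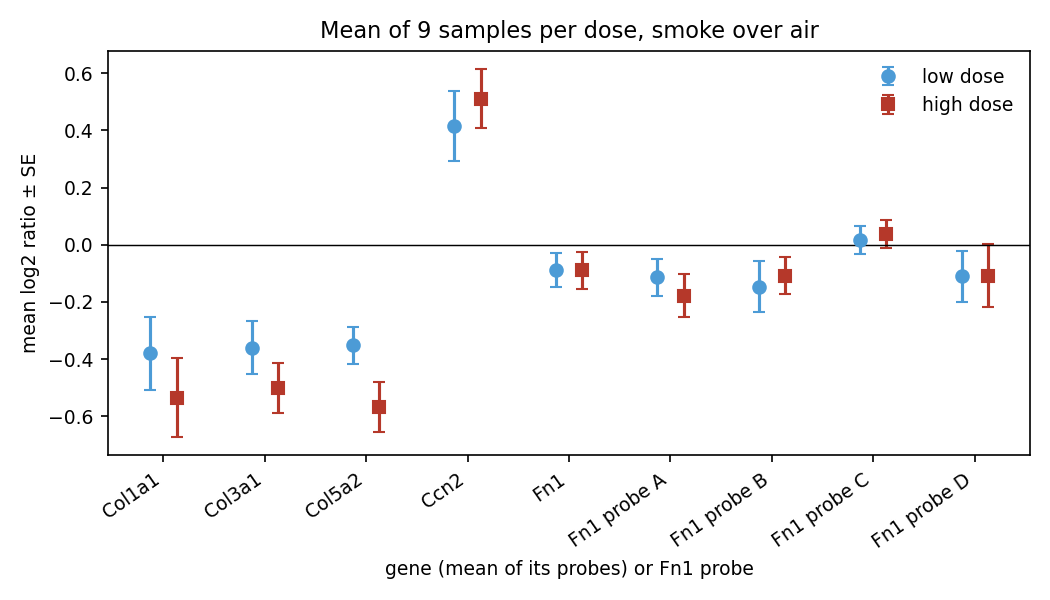
Mean log2 ratio of smoke over air with its SE (vertical axis) at the low dose (blue circles) and the high dose (red squares) for each gene and for each Fn1 probe (horizontal axis); each mean is over 9 samples, 8 for Fn1 probe B at the low dose. The 3 collagens lie between -0.57 and -0.35, Ccn2 at 0.42 and 0.51, and every Fn1 value between -0.18 and 0.04.

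The Fn1 mean hid probes of unequal behaviour. Probe C was flat, from -0.18 to 0.20 over both doses, with means of 0.04 ± 0.050 (SE, n = 9) at the high dose and 0.02 ± 0.049 (n = 9) at the low dose. Probe D moved most, between -0.79, reached 20 hours after 7 weeks of the high dose, and 0.45, reached 6 hours after 2 weeks of it, with means of -0.11 at both doses. Probes A and B lay between them, from -0.64 to 0.14 and from -0.64 to 0.28. Across the 18 samples probe A correlated with probe D at r = 0.77 and with probe B at 0.53, and probe B with probe D at 0.74, while probe C correlated with A, B and D at -0.13, -0.27 and -0.31. These are descriptions over samples that share air pools, with 17 samples where probe B is one of the pair.

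Probe A had the lowest Fn1 mean, -0.18 ± 0.075 at the high dose (SE, n = 9, below air in 6 of 9), with an unadjusted p of 0.03142 and a limma adjusted p of 0.1198 over 5115 probes. The other probes had adjusted p from 0.291 to 0.6509 at the high dose, and the 4 probes had 0.3598 to 0.8975 at the low dose, where 17.1% and 4.09% of all probes passed. No source used here says which part or splice form of the Fn1 transcript each probe reads. No Fn1 probe passed the test over hours, where 1.53% of all probes did, or over weeks, where 0.0983% did.

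The comparison of the doses asks whether more smoke moved these genes further. No member differed between doses, where 0.174% of all genes tested did (7 of 4016). Col5a2 came nearest: the high dose was lower by -0.22 on the log2 scale (95% interval -0.41 to -0.03, lower in 6 of 9 pairs, unadjusted p = 0.02852, limma adjusted p = 0.4289). Its largest gaps were -0.75 at 7 weeks 6 hours, where the low dose was at -0.06 and the high dose at -0.81, and -0.55 at 13 weeks 2 hours. Col5a2 at 2 weeks showed nearly equal doses, with gaps of 0.07, -0.02 and 0.16.

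Col1a1 and Col3a1 differed between doses by -0.15 (95% interval -0.37 to 0.06) and -0.14 (-0.35 to 0.07), with gaps of both signs. Ccn2 differed by 0.10 (-0.12 to 0.31) and Fn1 by 0.00 (-0.18 to 0.18). The 4 Fn1 probes differed by -0.06 to 0.02. These limma adjusted p ranged from 0.6649 to 0.9972. The intervals of Col1a1 and Col3a1 allow a dose difference nearly as large as their low-dose change, so a missed threshold does not show that the doses act alike.

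The hours after the last session separated Ccn2. At 2 hours its values were 0.84, 1.10 and 0.96 at the high dose and 0.68, 0.82 and 0.44 at the low dose, for 2, 7 and 13 weeks in turn. At 6 hours they were 0.23, 0.14 and 0.11 at the high dose and 0.16, -0.23 and -0.23 at the low dose. At 20 hours they were 0.19, 0.45 and 0.58 at the high dose and 0.33, 1.18 and 0.59 at the low dose. All 6 values at 2 hours thus lay above all 6 values at 6 hours, and the 20-hour values overlapped both.

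Averaged over the doses of each air pool, Ccn2 stood at 0.81 at 2 hours, 0.03 at 6 hours and 0.55 at 20 hours (SE 0.095 each, n = 3 pools). The F test over hours passed (limma adjusted p = 0.03041), as it did for 1.6% of 3994 genes. The drop from 2 to 6 hours was -0.78 ± 0.13 (SE, limma adjusted p = 0.01722). Each value is a ratio to the air pool of its own weeks and hours. A change over hours in smoke lungs and one in air lungs thus cannot be told apart, for Ccn2 or any member. The difference of 0.52 ± 0.13 from 6 to 20 hours (adjusted p = 0.1115) and of -0.25 ± 0.13 from 2 to 20 hours (adjusted p = 0.4573) did not pass. With 1 combination left out, the range over hours (the highest minus the lowest mean, which carries no direction) was 0.64 to 0.94. The call was lost without 7 weeks 6 hours (adjusted p = 0.1781), 13 weeks 6 hours (0.07989), 2 weeks 2 hours (0.06666), 7 weeks 2 hours (0.05288) or 13 weeks 2 hours (0.05231), and with the low-dose samples alone (0.1625); the adjusted p ran from 0.009819 to 0.1781 over the 19 alternatives.

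**Figure D3:**
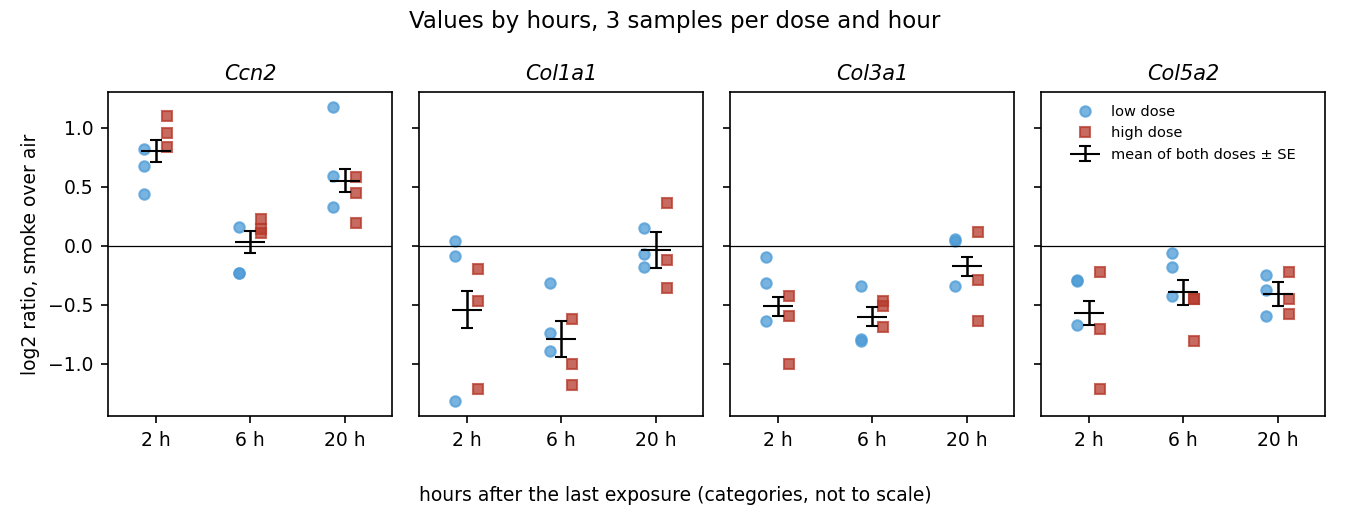
Log2 ratio of smoke over air (vertical axis) for Ccn2 and the 3 collagens by hours after the last session (horizontal axis, as categories); blue circles are low-dose and red squares high-dose samples, 3 of each per hour, and black bars are means of both doses with their SE. The mean Ccn2 log2 ratio falls from 0.81 at 2 hours to 0.03 at 6 hours, and those of Col1a1 and Col3a1 are nearest to 0 at 20 hours.

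Ccn2 also showed an order of doses that changed with the hours. The high dose exceeded the low dose in 3 of 3 pairs at 2 hours (mean difference 0.32) and in 3 of 3 at 6 hours (0.26), and lay under it in 3 of 3 at 20 hours (-0.29, from -0.73 to -0.01). The test of this change gave an unadjusted p of 0.01586 and a limma adjusted p of 0.9997, so it did not pass. No gene of 3994 passed that test by limma, and 149 had an unadjusted p under 0.05.

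Col1a1 and Col3a1 were nearest to air at 20 hours. Col1a1 at the high dose read -0.20, -0.47 and -1.22 at 2 hours, -1.18, -1.0 and -0.62 at 6 hours, and 0.36, -0.12 and -0.36 at 20 hours, for 2, 7 and 13 weeks in turn. The low-dose values were 0.04, -0.09 and -1.32 at 2 hours, -0.89, -0.32 and -0.74 at 6 hours, and -0.18, -0.07 and 0.15 at 20 hours. All 6 values at 6 hours were below air, with 5 of them below every 20-hour value.

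The means of both doses for Col1a1 were -0.54, -0.79 and -0.04 at 2, 6 and 20 hours (SE 0.15 each, n = 3 pools), and the test over hours did not pass (unadjusted p = 0.01511, limma adjusted p = 0.2042). It passed without the 13-week 2-hour samples (adjusted p = 0.02604; 0.02604 to 0.5937 over the 19 alternatives). For Col1a1 the value at 6 hours after 2 weeks of the high dose rests on 1 of the 2 deposited rows of its probe.

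Col3a1 had the same order, with means of -0.52, -0.60 and -0.18 (SE 0.082 each, n = 3 pools, unadjusted p = 0.008091, limma adjusted p = 0.1489). Its high-dose values were -0.60, -0.43 and -1.0 at 2 hours, -0.47, -0.69 and -0.51 at 6 hours, and -0.29, 0.12 and -0.64 at 20 hours. Its low-dose values were -0.10, -0.32 and -0.64, then -0.79, -0.34 and -0.81, then -0.34, 0.06 and 0.04. The 3 values at or above air all came from 20 hours. Col5a2 and Fn1 showed no such order: their means were -0.57, -0.40 and -0.41 (limma adjusted p = 0.7194) and -0.09, -0.07 and -0.11 (0.9654).

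No member passed the test over weeks, where 0.125% of genes did. The means at 2, 7 and 13 weeks were -0.34, -0.35 and -0.69 for Col1a1, -0.43, -0.27 and -0.59 for Col3a1, -0.33, -0.51 and -0.54 for Col5a2, 0.41, 0.58 and 0.41 for Ccn2, and -0.09, -0.11 and -0.07 for Fn1. The collagens were each lowest at 13 weeks. The limma adjusted p ranged from 0.7979 for Col3a1 to 0.9947 for Fn1. The dose difference did not pass a test of change over weeks for any member either; Col5a2 had the lowest unadjusted p (0.06277, limma adjusted p = 0.9993), with dose differences of 0.07, -0.38 and -0.34.

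Among the members, Col1a1 and Col3a1 varied together over the 9 air pools, each value being the mean of both doses. Pearson's r was 0.83 (exact permutation p = 0.003836, two-sided, 0.03836 adjusted over the 10 pairs of members) and Spearman's rho 0.85 (exact permutation p = 0.006074, adjusted 0.06074), and r was 0.69 without the 2 pools farthest from the Col1a1 median. Each point takes both genes from the same arrays and air pool, and a hybridisation or air pool that deviates would move both. The permutation also treats the 9 pools as exchangeable, though they differ in weeks and hours. Both genes had their highest mean at 20 hours (-0.04 and -0.18), so a shared course over hours enters r and its p. Its part was not tested. The other 9 pairs had adjusted p of 0.3278 or more for r.

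Over the 18 samples, the genes most like each member were found among 3555 genes with a value in every sample, by Pearson's r and with no test. For Col1a1 they were Col1a2 (r = 0.86), the gene of the other chain of type I collagen, Flna (0.78), Pakap (0.75) and Mrpl22 (0.74). For Col3a1 they were Rida (0.81), Col1a2 (0.78), Htr5b (0.75) and Ndufb3 (0.74). Col5a2 was most like Reep5 (0.80), Top2b (0.78), Npepps (0.74) and Cetn3 (0.73). Ccn2 was most like Por (0.82), Glul (0.80), Fkbp5 (0.78) and Adh1c (0.77), and Fn1 like Prkch (0.80), Ubtf (0.74), Ppme1 (0.72) and Pja2 (0.70).

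Of the 7 other collagens tested, 3 fell at the high dose and none rose, with a median of -0.26. That is 42.9% called in either direction, where 17.2% of all genes were; the list is small. Col4a1, a basement membrane chain, fell by 0.33 on the log2 scale (SE 0.047, below air in 9 of 9, limma adjusted p = 0.0003166). Col15a1, a chain of a basement membrane zone collagen, read -0.38 ± 0.11 (limma adjusted p = 0.02855) and Col5a1, the partner chain of Col5a2, -0.27 ± 0.088 (0.04505); leaving out 1 combination ended these calls in 5 and 7 of 9 fits, with adjusted p up to 0.07016 and 0.0979. Col1a2 read -0.26 ± 0.091 and did not pass (0.06235). At the low dose, where 4.96% of all genes passed, 2 of the 7 fell, Col4a1 (-0.29, limma adjusted p = 0.009269) and Col15a1 (-0.34, 0.04652). No fit without 1 combination was examined for these 2 calls at the low dose. Col15a1 was also the 1 of 7 that passed the F test over hours (limma adjusted p = 0.03041), where 1.6% of all genes did. Its call over hours was not examined in fits without 1 combination.

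Genes that fold, process and crosslink collagen did not share 1 direction. Of 13 tested at the high dose 1 fell and 2 rose (23.1%, against 17.2% of all genes), with a median of -0.07. Loxl1, a lysyl oxidase that crosslinks elastin and collagen, fell to a mean of -0.54 ± 0.079 (SE, below air in 9 of 9, limma adjusted p = 0.0004133). It also passed at the low dose (-0.42, limma adjusted p = 0.01073), a call not examined in fits that left out 1 combination. The subunits of prolyl 4-hydroxylase, which stabilises the collagen helix, read 0.25 ± 0.072 for P4ha2 (0.0285) and 0.20 ± 0.060 for P4hb (0.03362), and each call was lost in 5 of 9 fits that left out 1 combination (adjusted p up to 0.07282 and 0.07858).

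**Figure D4:**
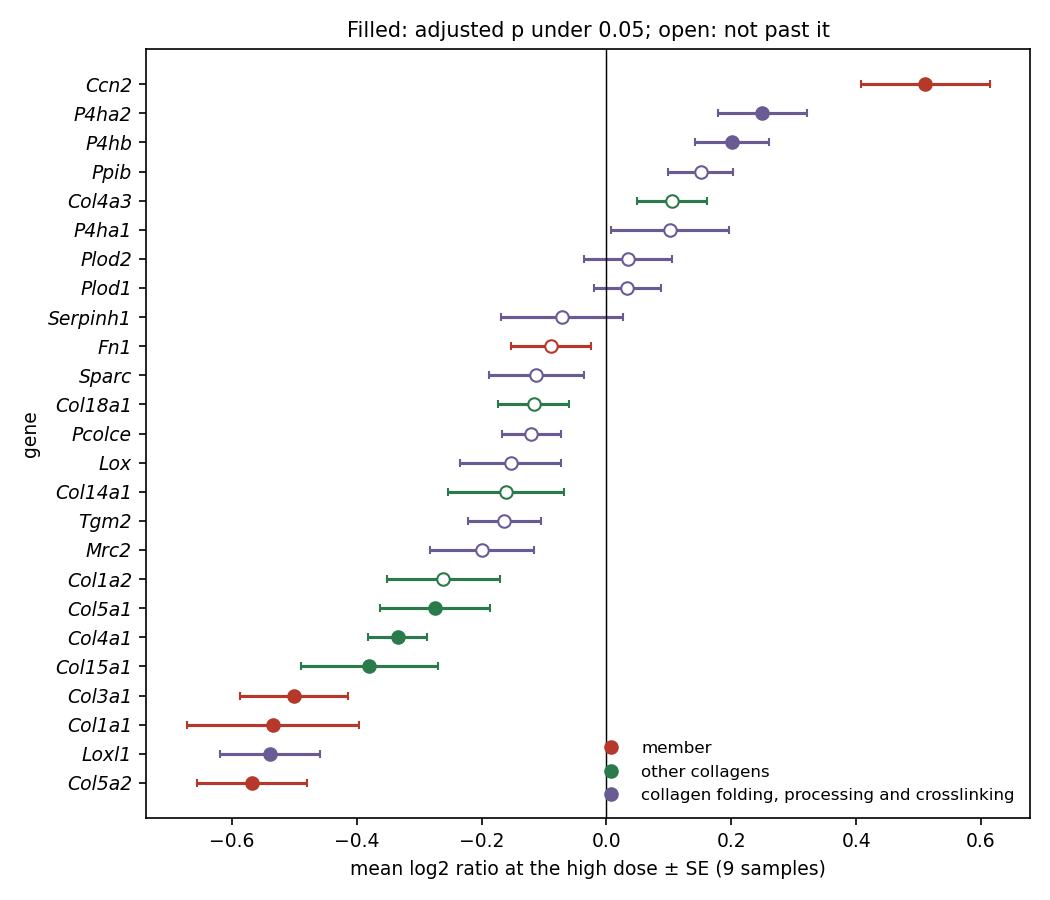
Mean log2 ratio of smoke over air at the high dose with its SE over 9 samples (horizontal axis) for the 5 members (red), the 7 other collagens tested (green) and the 13 folding, processing and crosslinking genes tested (purple), ordered by value (vertical axis); filled points passed an adjusted p of 0.05. Col5a2, Loxl1, Col1a1 and Col3a1 are lowest, between -0.57 and -0.50, and Ccn2 is highest at 0.51.

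Of 23 other matrix glycoproteins and proteoglycans tested, 8 fell and 1 rose at the high dose (39.1%, against 17.2% of all genes), with a median of -0.12. The largest change was that of Spon2, a secreted matrix protein, at -1.22 ± 0.12 (limma adjusted p = 1.722e-05). Mfap5 (-0.47) and Fbn1 (-0.42), components of elastic microfibrils, and Postn (-0.36), a matricellular protein that binds collagen, were also below air in 9 of 9 samples (adjusted p of 0.0005105 to 0.004546). The gene that rose was Mgp, a calcification inhibitor (0.32, above air in 6 of 9, adjusted p = 0.03106). At the low dose, where 4.96% of all genes passed, the same 4 named genes fell. Their limma adjusted p were 0.0001629 for Spon2, 0.04753 for Mfap5, 0.03357 for Fbn1 and 0.03332 for Postn. No fit without 1 combination was examined for these calls at the low dose. Spp1, the gene of osteopontin, rose by 1.17 at the low dose (adjusted p = 0.003775), while it read 0.49 ± 0.18 at the high dose (0.08086). Mgp and Spp1 are named after their values were seen, and their calls were not examined in fits without 1 combination.

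Matrix proteases and their inhibitors divided evenly, with 4 of 22 higher and 4 lower at the high dose (36.4%, against 17.2% of all genes). The 4 with the largest change all rose: Mmp12, the macrophage elastase, at 0.81, cathepsins Ctss at 0.73 and Ctsb at 0.61, and Plaur, the urokinase receptor, at 0.69 (limma adjusted p of 7.534e-06 to 0.0005911, above air in 9 of 9 each). Mmp12 is also on the macrophage list. At the low dose, where 4.96% of all genes passed, 3 of the 22 rose and 1 fell.

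Of 34 genes of TGF-beta, BMP and activin signalling, 4 fell and 1 rose at the high dose, and none passed at the low dose. These 14.7% are close to the 17.2% of all genes called, so the count is no result about the list. Those that fell were Inhba, the activin A subunit (-0.36, limma adjusted p = 0.009105), Smad7, an inhibitory SMAD (-0.20, 0.01916), Bmpr1a, a BMP receptor (-0.19, 0.01262), and the ligand gene Bmp6 (-0.18, 0.04488). The Smad7 call was lost in 1 of 9 fits that left out 1 combination, the one without 7 weeks 20 hours (adjusted p = 0.05346), and the Bmp6 call in 7 of 9 (up to 0.1042). Tgfb1, the ligand gene itself, read 0.07 ± 0.054 (0.4092). Tgfb1 and the gene that rose, Tgfbi at 0.16 (0.04241), are named after their values were seen. The Tgfbi call was not examined in fits that left out 1 combination.

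Among 13 CCN-family, mechanosensitive and growth factor genes tested beside Ccn2, 2 rose and 2 fell at the high dose (30.8%, against 17.2% of all genes) and none passed at the low dose. Edn1, the gene of the peptide endothelin-1, read 0.37 ± 0.12 (limma adjusted p = 0.04232). It also passed the F test over hours (limma adjusted p = 0.04132), where 1.6% of all genes did, a call not examined in fits without 1 combination. Klf4, a transcription factor gene, read 0.25 (limma adjusted p = 0.02567). Pdgfb read -0.23 (0.02784) and Pdgfa -0.19 (0.04682), both ligands for receptors of mesenchymal cells. Leaving out 1 combination ended the high-dose calls of Edn1, Klf4, Pdgfb and Pdgfa in 6, 2, 4 and 6 of 9 fits, with adjusted p up to 0.1033, 0.05595, 0.07702 and 0.1087.

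Receptors of collagen and fibronectin went both ways, with 3 of 17 higher and 3 lower at the high dose (35.3%, against 17.2% of all genes) and none past the test at the low dose. Itga4, an integrin chain that binds fibronectin and is carried by many leukocytes, fell to -0.51 (limma adjusted p = 0.002721), and Itga1, a collagen-binding chain, read -0.27 (0.02058, lost in 3 of 9 fits that left out 1 combination, up to 0.05349). Sdc4, a syndecan that assists fibronectin binding, rose by 0.33 (0.003998) and Cd44, a hyaluronan receptor, by 0.29 (0.002793).

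Of 9 fibroblast and pericyte markers 3 passed at the high dose, all lower (33.3%, against 17.2% of all genes). They were S100a4 at -0.48 (limma adjusted p = 0.0006269), which leukocytes express too, Pdgfrb at -0.34 (0.01229) and Thy1 at -0.16 (0.04985, lost in 8 of 9 fits that left out 1 combination, up to 0.1212). Among the other 6, Pdpn read -0.19, Lum -0.17, Cspg4 -0.11, Tcf21 -0.08 and Dcn -0.07, the last above air in 4 of 9. Pdgfra read 0.06 (6 samples). These 6 are named after their values were seen. The median of the 9 markers at the high dose was -0.16. The mean of the 9 fibroblast markers per sample ran from -0.32 to -0.01 at the high dose and from -0.31 to 0.06 at the low dose, where none passed. Of 7 smooth muscle and myofibroblast markers none passed at the high dose (sample means from -0.18 to 0.11). At the low dose, where 4.96% of all genes passed, 1 of the 7 did, Mylk at -0.25 (limma adjusted p = 0.03869). The Mylk call was not examined in fits that left out 1 combination.

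At the high dose, where 17.2% of all genes passed, 6 of 8 macrophage markers rose and 2 fell (100% called, sample means from 0.26 to 0.64). All 10 lymphocyte markers fell (100%, -0.88 to -0.24), and 3 of 8 endothelial markers fell (37.5%, -0.35 to -0.05). Of those 3, Cdh5 (-0.35) kept its call in each of the 9 fits that left out 1 combination, while Tek (-0.24) lost it in 6 and Kdr (-0.17) in 8 (adjusted p up to 0.08432 and 0.1137). Of 4 neutrophil markers tested 2 rose (50%, sample means over 5 markers from -0.88 to 1.72). Cxcr2 (0.55) kept its call in those 9 fits, and S100a9 (1.43) lost it in 5 (adjusted p up to 0.07313) and with limma's trend and robust prior (0.05394). In the epithelial lists, 3 of 6 alveolar epithelial markers rose and 1 fell (66.7%), and 1 of 3 airway markers rose (33.3%). At the low dose, where 4.96% of all genes passed, 5 of 8 macrophage markers rose and 1 fell, and 1 of 10 lymphocyte markers fell. At that dose 1 of 4 neutrophil and 3 of 6 alveolar epithelial markers rose, and no endothelial or airway marker passed. All of these lists are small. None passed at either dose among 3 mesothelial, 7 striated muscle and 1 cartilage marker tested. The part of these shifts in the values of the collagens, Ccn2 and Fn1 was not tested.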

How the data were processed

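Per the labels' protocols, whole-lung RNA of 4 rats per condition was pooled, linearly amplified, labelled and divided over 2 PIQOR arrays. The authors deposited 1 table of log2 ratios of smoke (Cy5) over air (Cy3); no source used here gives the scanner, the background correction or the normalization. Base 2 was read from the values under -1, 100% of which equal log2 of a 2-decimal ratio. Sample medians lie between -0.01 and 0.01.

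The 11994 rows form 5997 pairs that repeat a feature, and 5855 of the 5856 pairs with shared values agree in all of them; each pair was merged. Probes were named from the platform's gene table, and distinct probes of a gene averaged. Genes needed both doses in at least 6 of 9 combinations. Means against 0, paired dose differences, and F tests over hours or weeks were fitted with limma 3.58.1 (R 4.3.3) across all genes and adjusted by Benjamini-Hochberg. The fits were also run on simulated data with planted changes, and the outcome of that run is not given here. The 2 doses of a combination are paired because their labels name 1 control source; the correlation within a pool was 0.26.

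Members and gene lists were chosen with earlier results of these data known. Named genes were the members, up to 4 called genes with the largest high-dose change in each list (where none was called, the 2 with the largest change, as values), and the 4 genes most like each member. Alternatives covered probe level, merging, missing values, centring, scale, variance prior, test, block, covariates and samples left out. The number of arrays limits the precision.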

Additional observations from a re-analysis of the deposited data

Results flagged for a closer look

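Ccn2 differed between the hours after the last session: the range over the means at 2, 6 and 20 hours was 0.78 on the log2 scale, and the F test over hours passed (limma adjusted p = 0.03041), with the values and the samples on which the call rests given above. No other member, and none of the 4 Fn1 probes, passed a test over hours, over weeks or of the dose difference over either. The highest and lowest sample of each gene and Fn1 probe were examined at each dose for a gap to the others, 18 groups in all, and none stood apart.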

How the results depend on the processing

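Centring the arrays again, scaling them, merging no rows and testing every distinct probe ended no call of a member; the trend and robust prior ended 1, Col3a1 at the low dose (-0.36, adjusted p = 0.06598). The exact sign-flip permutation test, whose smallest p is 0.00391, ended those of Col1a1 (-0.53) and Col3a1 (-0.50) at the high dose and of Col3a1 (-0.36) and Col5a2 (-0.35) at the low dose. At the high dose that test passed only genes with all 9 values on 1 side of air. Col1a1 and Col3a1 had 8 of 9 below air there and could not pass. At the low dose that test passed 0 genes. Col5a2, with 9 of 9 values below air, had its smallest p and still did not pass, so the test could keep no call there. At the high dose Col1a1 lost its call without the 13-week (-0.44), 2-hour (-0.49), 6-hour (-0.34) or 7-week samples (-0.54). At the low dose Col3a1 lost it without the 13-week (-0.31), 2-hour (-0.36), 2-week (-0.34), 6-hour (-0.22) or 7-week samples (-0.44), and Col5a2 without the 13-week (-0.34), 20-hour (-0.32), 2-hour (-0.32) or 2-week samples (-0.34). These fits keep 6 samples. Ccn2 at the low dose passed with the replicate block (0.42) and without the 6-hour samples (0.67). The block ended no other member's call. The Ccn2 range over hours was 0.80 with the low-dose samples alone, where the call was lost.

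Leaving out 1 combination of weeks and hours moved the low-dose mean of Col3a1 between -0.41 and -0.30 and of Ccn2 between 0.32 and 0.50, and the Ccn2 range over hours between 0.64 and 0.94. The counts of called genes ran over such fits from 498 to 679 (high dose), 123 to 193 (low dose), 4 to 20 (high minus low), 29 to 70 (hours) and 2 to 7 (weeks).

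The high-dose count of 691 became 322 by the sign-flip test and 268, 398, 278 and 198 without the 13-week, 20-hour, 2-hour and 7-week samples. The low-dose count of 199 became 0 by the sign-flip test (limma: 770 with an unadjusted p under 0.05), 107 with the trend and robust prior, and 33, 122, 48, 128, 104 and 50 without the 13-week, 20-hour, 2-hour, 2-week, 6-hour and 7-week samples. The count of 7 for high minus low became 22 with values present in both rows (an alternative chosen after seeing the data), 24 with values in all 18 samples, 2 with no replicate block, 0 by the sign-flip test, with the trend and robust prior, and without the 6-hour or the 7-week samples (limma: 398 with an unadjusted p under 0.05), 4 without the 13-week and 1 without the 20-hour samples. The count of 64 over hours became 33 with the high-dose and 18 with the low-dose samples alone. The count of 5 over weeks became 3 with scaled arrays or the trend and robust prior, 8 with both rows present, 2 with the high-dose samples alone or without hours as a factor, and 1 with the low-dose samples alone.

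Uncalled values near 0 changed sign. For high minus low, Ccn2 became -0.017 without the 2-hour samples, and Fn1 became -0.0003 with arrays centred again, -0.0023 with arrays scaled, -0.046 without the 13-week and -0.078 without the 2-hour samples. Its probe A became 0.042 without the 20-hour samples; probe B -0.062, -0.11 and 0 without the 13-week, 20-hour and 2-week samples; probe C -0.005 and -0.038 without the 20-hour and 7-week samples; and probe D 0 with arrays centred again, and -0.077 and -0.15 without the 13-week and 2-hour samples. Without 1 combination, high minus low ran from -0.058 to 0.051 for Fn1, and from -0.11 to 0.026, -0.11 to 0.057, -0.0025 to 0.048 and -0.10 to 0.12 for probes A to D. Probe C at the low dose ran from -0.0013 to 0.038 in those fits and became -0.013 without the 13-week and -0.0033 without the 2-hour samples. Krt19, a mesothelial marker, became 0.015 at the high dose without the 20-hour samples. The causes were not tested.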
